A study of Mus musculus with 4 samples.

Results

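Yap1, Birc2 and Birc3 lie side by side on mouse chromosome 9, at a locus known to be amplified in some mouse liver tumours. Their copy number was examined in 4 liver tumours by array comparative genomic hybridization (aCGH), in which tumour DNA and reference DNA compete for the same oligonucleotides. Every probe that the array design names Yap1, Birc2 or Birc3 on chromosome 9 was taken, which gave 3 of 22180 gene names and 13 of 169093 placed probes. All 180 probes from 1 Mb before to 1 Mb after these 13 served as the local level. The question was whether the locus departed from the rest of chromosome 9 in any tumour. It did not depart as a whole: the window and the 13 probes lay within 0.04 (log2) of the chromosome 9 mean in each of the 4 tumours. Birc3, with 3 probes, lay above it in 4 of 4 tumours, by a mean that did not pass the test across all genes. Of 17 other window genes with at least 2 probes, 1 also lay above the chromosome 9 mean in all 4 tumours. In all 4, 2 of the 17 lay below it.

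Yap1 encodes a transcriptional coactivator that the kinases of the Hippo pathway hold in the cytoplasm, and that drives growth genes with Tead factors when it reaches the nucleus. Birc2 and Birc3 encode cIAP1 and cIAP2, ubiquitin ligases of the inhibitor of apoptosis (IAP) family that bind Traf proteins and restrain death signalling from tumour necrosis factor receptors. In liver, Hippo signalling limits organ size. Amplification of this neighbourhood is known as an event that raises the copy number of growth and survival genes together.

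The tumours came from 4 mice of strain C57BL/6J in which Trp53, coding for the tumour suppressor p53, had been lost specifically in the liver. The labels give the genotype Trp53-/-, male sex and no treatment, and give neither age nor the promoter behind the liver-specific loss. The reference was DNA pooled from 3 littermates of the same sex, named as spleen in the labels and as liver in the labelling protocol, and also labelled Trp53-/-. Tumour DNA carried Cy5 (red) and reference DNA carried Cy3 (green) on all 4 arrays, which formed 1 group with 1 array per tumour. DNA carries no expression markers by which the tissue could be checked, and the share of tumour cells in each piece is not given in the sources used here.

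Each value is the log2 ratio of red over green, centred so that the median autosomal probe of an array reads 0. On this scale 1 extra copy in every cell, 3 copies over 2, would in theory read 0.58, and admixed cells with 2 copies would bring that value towards 0. How near to 0.58 these arrays would read such a gain was not tested. All 52 spots of the 13 probes were well above background in both channels, none was saturated and none was flagged as non-uniform or outlying. The noise between neighbouring probes (SD) was 0.12, 0.37, 0.15 and 0.15 for tumours 1 to 4. The file header put the noise of tumour 2's array outside its accepted range. The arrays of tumours 1 and 4 departed from the labelled sex match: the mean log2 ratio was -0.82 on X and 2.22 on Y for tumour 1, and 0.84 on X and -2.35 on Y for tumour 4. Tumours 2 and 3 read -0.05 and -0.01 on X and -0.09 and -0.20 on Y. The autosomal comparisons were therefore also made without tumours 1 and 4. With 4 arrays every mean over tumours is imprecise.

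In build mm9 the Birc2 probes covered chr9:7819527-7832545 (5 probes), the Birc3 probes chr9:7851131-7868869 (3 probes) and the Yap1 probes chr9:7941150-7995395 (5 probes). Together they spanned 175869 bp, in which 9 other probes lay. Their mean GC content was 36.1%, against 36.5% over the 159076 autosomal probes. Exon and intron positions in mm9 were not analysed here. The sequences shown are the highest and the lowest probe of each gene by mean log2 ratio, because probes of 1 gene lay apart. They are given as the array design lists them, which states no strand, in lower case with no part marked. In the order printed, they lie at chr9:7832486-7832545, chr9:7826287-7826346, chr9:7864683-7864742, chr9:7851131-7851190, chr9:7941150-7941209 and chr9:7988296-7988355.
Birc2 highest: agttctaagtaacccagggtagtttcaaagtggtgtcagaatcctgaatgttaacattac
Birc2 lowest: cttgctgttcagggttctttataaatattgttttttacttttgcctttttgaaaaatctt
Birc3 highest: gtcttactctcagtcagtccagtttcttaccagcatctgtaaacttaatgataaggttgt
Birc3 lowest: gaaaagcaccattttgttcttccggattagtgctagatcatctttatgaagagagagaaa
Yap1 highest: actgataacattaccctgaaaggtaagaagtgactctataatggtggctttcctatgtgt
Yap1 lowest: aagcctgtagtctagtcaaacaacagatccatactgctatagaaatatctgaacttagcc

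The locus as a whole was low with its chromosome. The 13 probes averaged a log2 ratio of -0.14, -0.03, -0.11 and -0.16 in tumours 1 to 4 (mean -0.11 ± 0.06, SD, n = 4). The 180 probes of the window averaged -0.19, -0.04, -0.14 and -0.19 (mean -0.14 ± 0.07, SD, n = 4). Chromosome 9 outside the window, 8195 probes, averaged -0.17, -0.00, -0.12 and -0.20 (mean -0.12 ± 0.09, SD, n = 4). In all 3 measures tumour 2 was the nearest to 0 and tumours 1 and 4 were the lowest.

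The difference of the window from the rest of chromosome 9 was -0.01, -0.04, -0.02 and 0.01 in tumours 1 to 4. It was below 0 in 3 of 4 tumours, with a mean of -0.015 ± 0.017 (SD, n = 4), a ratio of 0.99. The difference of the 13 probes was 0.03, -0.03, 0.01 and 0.04. It was above 0 in 3 of 4 tumours, with a mean of 0.013 ± 0.030 (SD, n = 4), a ratio of 1.01. The 13 probes lay above the other probes of the window in 4 of 4 tumours, by 0.05, 0.01, 0.03 and 0.04 (mean 0.031 ± 0.016, SD, n = 4). None of the 3 differences passed an exact two-sided sign-flip permutation test over tumours, with p = 0.25 for the window, p = 0.375 for the 13 probes and p = 0.125 for the 13 probes against the window (Benjamini-Hochberg adjusted p = 0.375 for each). With 4 tumours this test cannot give a p below 0.125. Without tumour 2 the 3 means were -0.0075, 0.027 and 0.038. With tumours 2 and 3 alone they were -0.027, -0.0087 and 0.020, so that the mean of the 13 probes changed sign. With the sign of tumour 1 or tumour 4 turned, the 13 probes lay above the rest of the window by 0.0066 or 0.013 in place of 0.031.

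The spread between probes sets how small a departure each array could show. The 95% interval of the window's difference, from that spread, ran from -0.030 to 0.0079 in tumour 1, from -0.094 to 0.019 in tumour 2, from -0.041 to 0.0074 in tumour 3 and from -0.017 to 0.027 in tumour 4. For the 13 probes it ran from -0.047 to 0.11, from -0.27 to 0.21, from -0.092 to 0.11 and from -0.013 to 0.089. All 8 intervals held 0 and ended below 0.58, the value of 1 extra copy in every cell. They cover the spread between probes of 1 array only, and take neighbouring probes as independent.

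**Figure D1:**
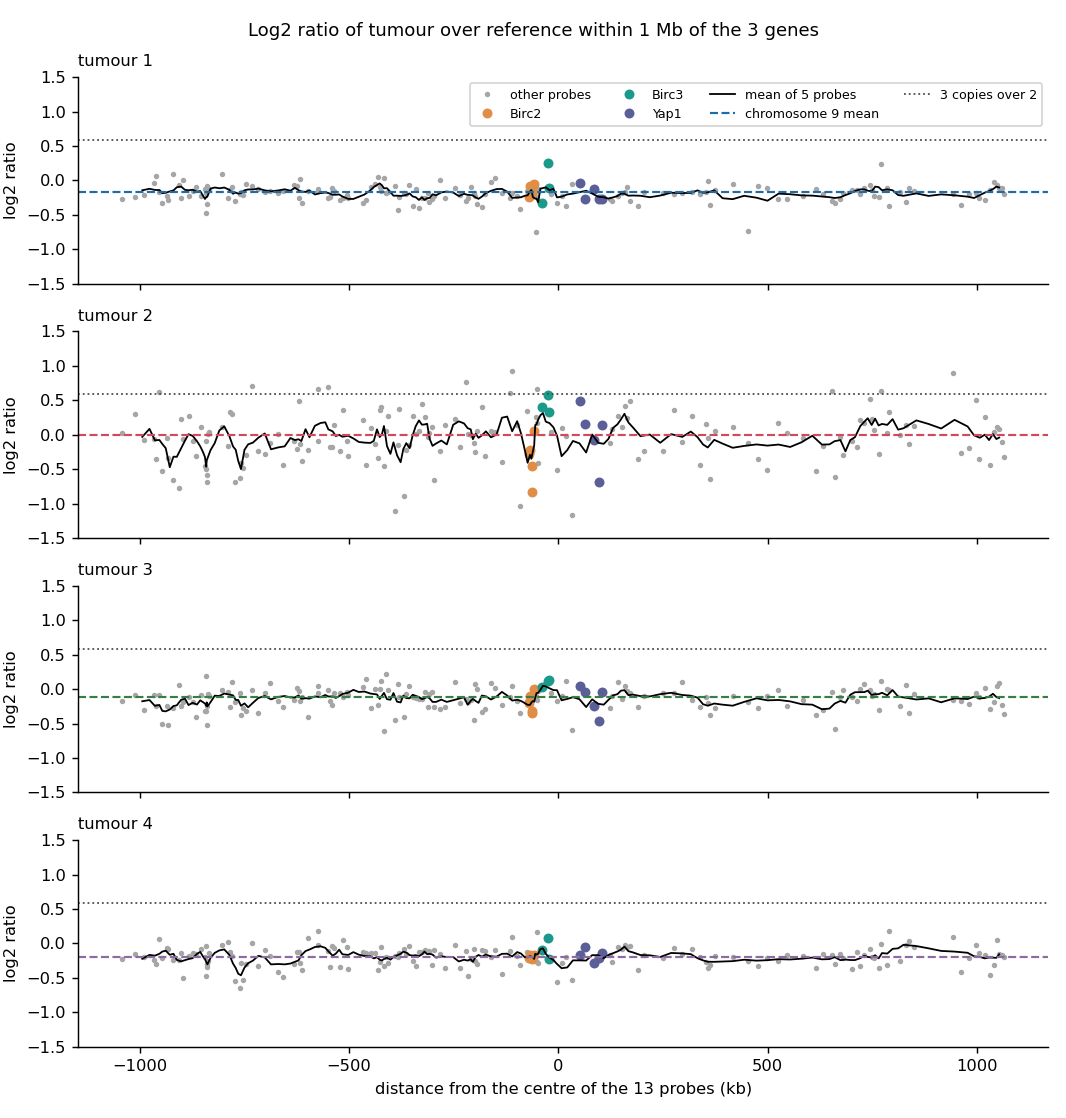
Log2 ratio of tumour over reference (y axis) against distance in kb from the centre of the 13 probes (x axis) for each tumour, with the probes of Birc2, Birc3 and Yap1 coloured, the mean of 5 neighbouring probes as a line, the chromosome 9 mean dashed and 3 copies over 2 dotted. The line runs on both sides of the chromosome 9 mean and does not reach 0.58 in any of the 4 tumours. Its highest value is 0.32, in tumour 2, whose probes scatter most.

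A gain narrower than the window was looked for in means of 5 neighbouring probes, of which the window held 176 of the 8371 on chromosome 9. The profile by distance shows these means. Their highest value in the window was -0.04, 0.32, 0.05 and -0.02 in tumours 1 to 4, so that 0 of them reached 0.58 in each tumour. In tumours 2 and 3 the highest stretch lay over the member genes, 36.5 kb before their centre, close to Birc3. Elsewhere on chromosome 9 the highest stretch was 0.30, 0.81, 0.31 and 0.10, and 226, 374, 83 and 126 stretches lay above the highest of the window. The window therefore did not hold the highest stretch of the chromosome in any of the 4 tumours. Its lowest stretch read -0.32, -0.50, -0.32 and -0.46, and in tumour 1 this lay 48.2 kb before the centre. The lowest probe of that stretch, named AK021182 and lying between Birc2 and Birc3, read -0.75. Its only member probe, from Birc3, read -0.32.

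By distance from the centre, the 24 probes within 100 kb lay -0.032 ± 0.032 (SD, n = 4) from chromosome 9, below it in 4 of 4 tumours. The 42 probes from 500 to 100 kb before the centre lay 0.00027 ± 0.013 from it, and the 23 probes from 100 to 500 kb after lay -0.012 ± 0.022 from it. The outermost 55 probes before lay -0.037 ± 0.051 and the outermost 36 after lay 0.010 ± 0.022 from it. The nearest 24 probes, which leave out the last Yap1 probe, were thus below 3 of the 4 outer groups in the mean over tumours and just above the outermost group before the centre.

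Segmentation, which divides each chromosome at steps in the log2 ratio, placed no edge near the locus. The segment that held all 3 genes began at the first chromosome 9 probe in every tumour, at 3088282. It ended at 100293100 in tumour 1 (mean log2 ratio -0.18), 103252801 in tumour 2 (-0.02), 57678213 in tumour 3 (-0.12) and 20118809 in tumour 4 (-0.17). The nearest edge on the distal side was therefore 12.1 Mb beyond the 3 genes in tumour 4 and 49.7 Mb or more beyond them in the others. With a call at a mean of 0.2 or more from 0, the segment was called for 0 of the 12 pairs of gene and tumour. The share of 21341 autosomal genes in called segments was 4.1%, 4.91%, 0.0375% and 7.72% in tumours 1 to 4. With normexp background correction the segment over the 3 genes was called as low in tumours 1 and 4, with means of -0.24 in both. It then ran for 101 Mb in tumour 1 and for all 121 Mb of the probed chromosome in tumour 4. With a limit of 0.1 in place of 0.2, it was called as low in tumours 1, 3 and 4. The share of all genes called as low was 9.68% and 9.47% in tumours 1 and 4 with normexp, and 10.4%, 9.61% and 10.2% in tumours 1, 3 and 4 at the limit of 0.1.

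**Figure D2:**
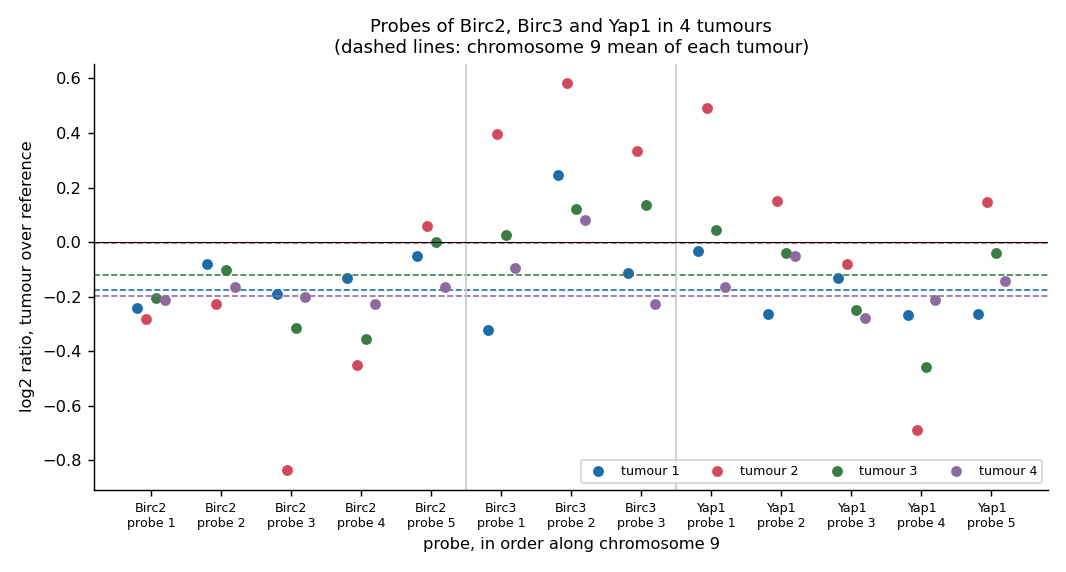
Log2 ratio of tumour over reference (y axis) for each of the 13 probes in order along chromosome 9 (x axis), with 1 point per tumour and the chromosome 9 mean of each tumour as a dashed line. Birc3 probe 2 is above its chromosome mean in all 4 tumours, whereas Birc2 probe 3 and Yap1 probe 4 are below it in all 4, and the points of tumour 2 spread from -0.84 to 0.58.

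The plot of the 13 probes shows that neighbouring probes within 1 gene lay apart. The probes ranged from -0.32 to 0.25 in tumour 1, from -0.84 to 0.58 in tumour 2, from -0.46 to 0.14 in tumour 3 and from -0.28 to 0.08 in tumour 4. The highest, a Birc3 probe in tumour 2, read just under the value of 1 extra copy, and just over it when the chromosome 9 mean of that tumour was subtracted. Above the chromosome 9 mean of the same tumour lay 7, 7, 8 and 7 of the 13 probes. Of the 13, 3 lay above that mean in all 4 tumours, 3 below it in all 4, and 7 on either side. The same counts over all probes are not given here. The order of the probes was alike between arrays: Pearson's r over the 13 probes was between 0.40 and 0.92 for the 6 pairs of arrays, highest for tumours 2 and 3. Over all autosomal probes r was between 0.14 and 0.50. These correlations are across probes, which share their sequence between arrays and may share the reference pool, and they are given as a description.

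Birc2, which encodes cIAP1, had a gene mean log2 ratio of -0.14, -0.35, -0.19 and -0.19 in tumours 1 to 4 (mean -0.22 ± 0.09, SD, n = 4). All 4 tumours were below 0, and tumour 2 was the lowest. From the chromosome 9 mean it lay 0.04, -0.34, -0.07 and 0.00 away, so that tumour 2 stood apart and the others were close to the chromosome. The mean departure was -0.09 ± 0.17 (SD, n = 4), with a 95% interval of -0.26 to 0.07 and an adjusted p of 0.497 in limma, and without tumour 2 it was -0.01. Its lowest probe by mean, shown as Birc2 lowest, read -0.19, -0.84, -0.31 and -0.20, and has a GC content of 26.7%. This probe was the lowest of the gene in tumour 2 alone. Its highest probe read -0.05, 0.06, 0.00 and -0.16. Leaving out each probe in turn gave mean departures of -0.14 to -0.05.

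Birc3, which encodes cIAP2, read -0.06, 0.44, 0.10 and -0.08 in tumours 1 to 4 (mean 0.10 ± 0.24, SD, n = 4). Only tumours 2 and 3 were above 0. From the chromosome 9 mean it lay 0.11, 0.44, 0.22 and 0.12 away, above it in 4 of 4 tumours and farthest in tumour 2. The share of all genes above their chromosome mean in 4 of 4 tumours is not given here. The mean departure of Birc3 was 0.22 ± 0.15 (SD, n = 4), with a 95% interval of 0.07 to 0.37. In limma its p was 0.0119 before and 0.382 after adjustment over 13389 genes. The adjusted p was between 0.103 and 0.581 over the 13 alternatives in which the gene was tested. Without tumour 2 the mean departure was 0.15, and with tumours 2 and 3 alone it was 0.33. With the sign of tumour 1 or tumour 4 turned it was 0.17 or 0.16, above 0 in 3 of 4 tumours.

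The height of Birc3 rested most on 1 of its 3 probes. The probe shown as Birc3 highest read 0.25, 0.58, 0.12 and 0.08 in tumours 1 to 4, above the chromosome 9 mean by 0.42, 0.59, 0.24 and 0.28. The probe shown as Birc3 lowest read -0.32, 0.40, 0.03 and -0.10, and the last of the 3 read -0.11, 0.33, 0.14 and -0.22. Without the highest probe the mean departure of the gene was 0.14 ± 0.18 (SD, n = 4), above 0 in 3 of 4 tumours. Without either of the others it was 0.27 or 0.25, above 0 in 4 of 4.

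Yap1, the coactivator, read -0.19, 0.00, -0.15 and -0.17 in tumours 1 to 4 (mean -0.13 ± 0.09, SD, n = 4). From the chromosome 9 mean it lay -0.02, 0.01, -0.03 and 0.03 away, on both sides of it and within 0.03 in every tumour. The mean departure was -0.0023 ± 0.024 (SD, n = 4), with a 95% interval of -0.08 to 0.08 and an adjusted p of 0.974 in limma. The probe shown as Yap1 highest read -0.03, 0.49, 0.04 and -0.16, and the probe shown as Yap1 lowest read -0.27, -0.69, -0.46 and -0.21. Leaving out each probe in turn gave mean departures of -0.06 to 0.07, the highest without the lowest probe.

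**Figure D3:**
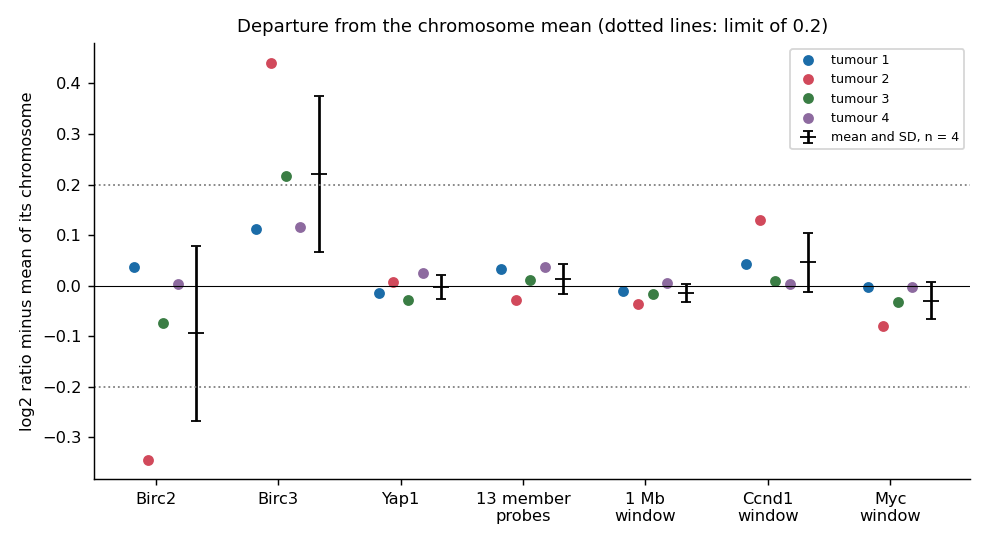
Log2 ratio minus the mean of its chromosome (y axis) for Birc2, Birc3, Yap1, the 13 probes, the window of 1 Mb on each side, and the windows of Ccnd1 and Myc (x axis), with 1 point per tumour and the mean and SD of 4 tumours in black. The windows lie near 0, Birc3 is above 0 in all 4 tumours, and Birc2 and Birc3 of tumour 2 lie farthest from 0, at -0.34 and 0.44.

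Across all genes no departure passed the test. In limma 0 of 13389 autosomal genes with at least 2 probes, 0%, departed from their chromosome mean at an adjusted p under 0.05, and 1743 had an unadjusted p under 0.05. The middle 90% of the genes lay between -0.16 and 0.16, and the mean departure of Birc3 was matched or exceeded in size by 422 genes (3.15%), that of Birc2 by 3794 (28.3%) and that of Yap1 by 13092 (97.8%). These genes include many with more probes than Birc3, and shares among genes with as few probes are not given here. Without subtracting the chromosome mean, limma again called 0 of 13389 genes (0%), with 2540 at an unadjusted p under 0.05. The adjusted p was then 0.0857 for Birc2, 0.227 for Yap1 and 0.557 for Birc3. In limma Birc2 passed as lower than the autosomal median, with chromosome 9 not subtracted, under 4 alternatives: genes with at least 5 probes (adjusted p = 0.0172), normexp (0.0244), the slide as a random block (0.0217) and without tumour 2 (0.0291). Of all genes tested, 3.86%, 6.14%, 4.78% and 5.57% passed as lower under these 4 alternatives. The slide block had a correlation of -0.34, so that arrays of 1 slide were less alike than arrays of different slides. Yap1 passed as lower only without tumour 2 among the alternatives run (adjusted p = 0.0299 in limma).

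**Figure D4:**
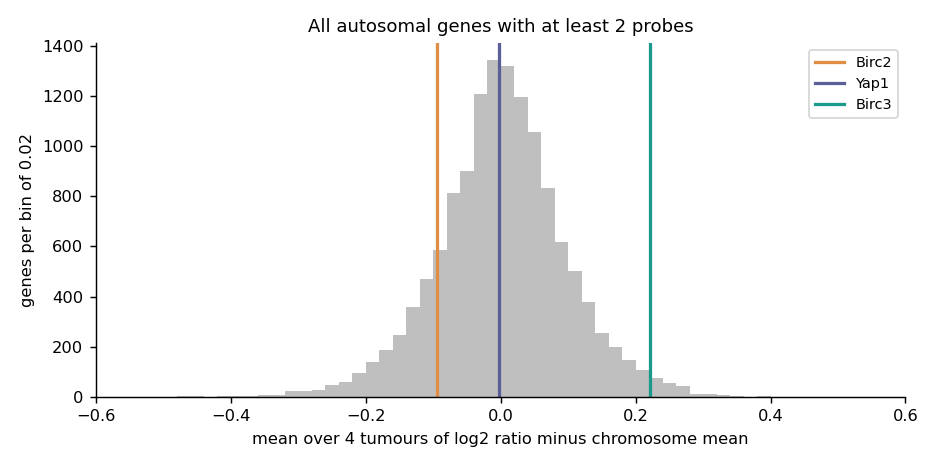
Number of autosomal genes (y axis, per bin of 0.02) by mean departure from their chromosome over 4 tumours (x axis, log2), with lines at Birc2, Yap1 and Birc3. Yap1 lies at the middle of the 13389 genes, Birc2 at -0.09 and Birc3 at 0.22, beyond the range of -0.16 to 0.16 that holds 90% of the genes.

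Tumour by tumour, a gene was called when its mean lay 0.2 or more from its chromosome mean in either direction. This limit was passed by 2.32%, 37.5%, 2.93% and 6.06% of the 13389 genes in tumours 1 to 4. For the members it was passed in 3 of 12 cases, Birc3 high and Birc2 low in tumour 2, and Birc3 high in tumour 3. In tumours 1 and 4 none of the 3 genes passed. The calls in tumour 2 fell on the array where more than 1 in 3 of all genes passed. Birc3 in tumour 3, at 0.22, was just past the limit.

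The 3 genes were also set against each other within each array. Birc3 exceeded Birc2 by 0.08, 0.79, 0.29 and 0.11 in tumours 1 to 4 (mean 0.32 ± 0.33, SD, n = 4), and Yap1 by 0.13, 0.43, 0.24 and 0.09 (mean 0.22 ± 0.15). Yap1 exceeded Birc2 by -0.05, 0.35, 0.05 and 0.02 (mean 0.09 ± 0.18). Birc3 was thus the highest of the 3 genes in 4 of 4 tumours, with the widest gap in tumour 2. In the exact two-sided sign-flip permutation test the p was 0.125, 0.125 and 0.5 (Benjamini-Hochberg adjusted over the 3 pairs, 0.188, 0.188 and 0.5), so that no pair passed, at the smallest p that 4 tumours allow for the 2 pairs with Birc3. Without tumour 2 Birc3 exceeded Birc2 by 0.16. This order takes the direction of the arrays of tumours 1 and 4 as labelled. With the sign of tumour 1 or tumour 4 turned, Birc3 exceeded Birc2 by a mean of 0.28 or 0.26 and Yap1 by 0.16 or 0.18, in 3 of 4 tumours each. The order of probes that the arrays share lies within these differences, and its part in them was not tested.

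Of the 25 other named genes of the window, the 17 with at least 2 probes had mean departures from chromosome 9 between -0.13 (AK129341) and 0.17 (Tmem123), with a median of 0.017. Tmem123, a transmembrane protein gene proximal to Birc2, lay -0.05, 0.56, 0.04 and 0.13 from chromosome 9 in tumours 1 to 4, high in tumour 2 alone. Trpc6, a cation channel gene with 14 probes beyond Yap1, lay 0.01, 0.05, 0.03 and 0.01 from it (mean 0.025 ± 0.021, SD, n = 4). Dync2h1, a ciliary dynein heavy chain gene with 31 probes at the proximal end, lay 0.02, -0.18, -0.08 and -0.03 from it (mean -0.07 ± 0.09). Pgr, the progesterone receptor gene at the distal end, had 7 probes and lay 0.04, -0.05, -0.01 and -0.01 from it. The matrix metalloproteinase genes of the window with at least 2 probes (Mmp13, Mmp12, Mmp1b, Mmp1a, Mmp10, Mmp27 and Mmp20) had mean departures between -0.10 and 0.04. In limma none of these neighbours passed, the adjusted p of Tmem123 being 0.436.

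Ccnd1 on chromosome 7, which encodes cyclin D1, and Myc on chromosome 15, which encodes the Myc transcription factor, are the other loci taken as known sites of amplification. The window of 1 Mb around Ccnd1 (84 probes) lay 0.04, 0.13, 0.01 and 0.00 from its chromosome (mean 0.047 ± 0.058, SD, n = 4). The window around Myc (97 probes) lay -0.00, -0.08, -0.03 and -0.00 from its own (mean -0.030 ± 0.036). Each of these 2 genes had 1 probe. That of Ccnd1 lay 0.20, 0.53, 0.27 and 0.32 from chromosome 7 outside the window (mean 0.33 ± 0.14), above it in 4 of 4 tumours. That of Myc lay -0.10, 0.76, 0.07 and 0.27 from chromosome 15 outside the window (mean 0.25 ± 0.37), above it in 3 of 4. Both means were larger than the 0.22 of Birc3. The Yap1, Birc2 and Birc3 window differed from the Ccnd1 window by -0.062 ± 0.074 and from the Myc window by 0.015 ± 0.021, each with p = 0.25 in the exact two-sided sign-flip permutation test and an adjusted p of 0.25 over both. The window around Myc had a mean log2 ratio of 0.19 before its chromosome was subtracted, against -0.14 for the window of the 3 genes.

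The partners of the 3 proteins were taken as 2 lists. Of 26 genes of the Hippo pathway 23 were measured with at least 2 probes, and their median departure from the chromosome mean was -0.0058, against 0.0021 over all 13389 genes. The limit of 0.2 was passed by 0, 14, 1 and 1 of them in tumours 1 to 4, which is 0%, 60.9%, 4.35% and 4.35%, against 2.32%, 37.5%, 2.93% and 6.06% of all genes. Mob1a, an activator of the Lats kinases listed on the array as Mobkl1b, was the 1 member past the limit alike in more than 1 tumour, at 0.08, -0.29, 0.06 and -0.22. The share of all genes past the limit alike in more than 1 tumour is not given here, so Mob1a is named by rule only. Stk3, a Hippo kinase gene with 30 probes, lay -0.0021, -0.130, -0.017 and -0.0058 from its chromosome. In limma 0 of the 23 passed, with 2 at an unadjusted p under 0.05.

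Of 25 genes of the IAP family and of cell death 17 were measured, with a median departure of 0.019. The limit was passed by 1, 5, 1 and 0 of them in tumours 1 to 4, which is 5.88%, 29.4%, 5.88% and 0%, against the same shares of all genes as above. Naip1, a sensor of bacterial proteins with IAP repeats, was the 1 gene past it alike in more than 1 tumour, at -0.20, 0.03, -0.23 and 0.14. Here too the matching share of all genes is not given. Naip1 belongs to a family of close copies on chromosome 13, so that its probes may also read its relatives. Traf2, an adaptor that recruits cIAP1 and cIAP2, lay 0.11, 0.51, 0.02 and 0.08 from its chromosome. It was high in tumour 2 alone, and its values were looked up after the counts were known. In limma 0 of the 17 passed, with 1 at an unadjusted p under 0.05.

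The mean of the 3 genes was -0.13, 0.03, -0.08 and -0.15 in tumours 1 to 4. The autosomal genes outside the window nearest to these 4 values, among 2240 with at least 10 probes, were Nek11, Hnt and Lars2, at Euclidean distances of 0.043, 0.049 and 0.054 over the 4 tumours. Nek11 read -0.14, 0.07, -0.09 and -0.14 at chr9:105064911-105289132. Hnt read -0.16, 0.01, -0.10 and -0.12 at chr9:28806640-29763386. All 3 lie on chromosome 9 but far from the locus. The mean of Yap1, Birc2 and Birc3 was thus close to a pattern found along their chromosome. This mean joined unlike genes in tumour 2, where Birc2 read -0.35, Yap1 0.00 and Birc3 0.44.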

How the data were processed

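The scanner files were made with Agilent Feature Extraction 12.0.1.1 on mm9, per the file headers, and 12.0.0, per the submitters' processing notes. For each channel that software gave a processed intensity, corrected for background and scaled between the dyes, per the file headers. The deposited mean and background intensities served only the normexp alternative (offset 50). The deposited log10 ratio was used to check direction and as an alternative, and lay within 0.001 of the ratio of processed intensities at 99.7% or more of the spots.

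Log2 of red over green was computed per spot, non-uniform and outlier spots were left out, spots of 1 probe were averaged, and the array's values were centred on their autosomal median. No loess or quantile step was used. Gene values are means of their probes. Departures of genes and probes are from the mean of all probes of the chromosome, those of the window and the 13 probes from chromosome 9 outside the window. Means over tumours were tested with exact sign-flip permutation tests, and genes with limma 3.58.1 (R 4.3.3), with an intercept and Benjamini-Hochberg adjustment over 13389 genes. Per the series design the 4 tumours came from separate mice, so p-values measure the spread between mice and arrays. Segments came from penalised least squares (penalty factor 3, at least 5 probes, limit 0.2). The steps were tested on simulated data with independent noise. There the segment limit was lower than the one used here, and the planted gene departures were larger than those of the 3 genes. Whether limma would find gene departures as small as those reported was not tested. Array names were matched to current symbols through the RefSeq table of another assembly, used for names only.

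The genes named are Yap1, Birc2 and Birc3, genes with a probe in the window, list genes past the limit alike in more than 1 tumour, Ccnd1 and Myc, and the 3 genes most alike. Stk3 and Traf2 were added after their values were seen. The members, lists and tests were chosen with earlier results of these data known. Leaving out single probes, the alternatives for Birc3 minus Birc2, and turning the sign of tumour 1 or 4 for Birc3 were chosen after seeing the data.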

Additional observations from a re-analysis of the deposited data

Results flagged for a closer look

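Of 64 results examined for a tumour far from the other 3, 2 stood out by the gap to its nearest neighbour relative to the whole range, both in tumour 2, whose array was the noisiest. AK129341, a window gene with 2 probes, lay -0.291 from chromosome 9 in tumour 2, and the next lowest tumour lay at -0.092. Stk3 lay -0.130 from its chromosome in tumour 2, and the next lowest lay at -0.017. Chance alone marks about 1 in 20 groups in this way. None of the values of Yap1, Birc2 and Birc3 was marked.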

How the results depend on the processing

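The mean of the 13 probes minus chromosome 9, 0.013, changed sign with the sign of tumour 1 turned (-0.0033), with that of tumour 4 turned (-0.0054) and with tumours 1 and 4 left out (-0.0087). Leaving out 1 tumour gave 0.0053 to 0.027 for it, -0.022 to -0.0075 for the window, and 0.025 to 0.038 for the 13 probes minus the window, which kept their signs. Genes departing from their chromosome mean numbered 0, or 2 with tumours 1 and 4 left out. Genes departing from the autosomal median numbered 0, but 387 among genes with at least 5 probes, 1469 with normexp, 1114 with the slide as a random block, 1 with tumours 1 and 4 left out, and 0 to 1162 with 1 tumour left out, the highest without tumour 2. At a limit of 0.1 the members had 5 calls in place of 3, and list genes had 59 in place of 23. The list calls numbered 13 at a limit of 0.3, 40 with normexp and 14 with the intensity trend removed. The shares of all genes past the limit in these settings are not given here, so the counts describe no trait of the members or lists. Members in called segments numbered 9 of 12 at a limit of 0.1 and 6 with normexp, in place of 0. The cause of these changes was not tested. Of 948 recomputed values of 76 single results, none of which passed a test, 34 moved beyond 1 SD and 68, of 36 results, changed sign. No paired analysis was possible because the tumours form 1 group. Few probes per gene and the noise of tumour 2's array limit what could be seen: for 1 gene on that array a departure of 0.2 was no rarity, at 37.5% of genes, whereas the window's mean was known there to within 0.094 of the chromosome.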
